A study of Mus musculus with 12 samples.

Results

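Bone marrow of mice given both a MEK inhibitor and 5-azacitidine was compared with bone marrow of mice given vehicle, over all genes with enough reads. The comparison rests on 6 of the 12 libraries of the series, 3 mice with the combination against 3 mice with vehicle, chosen by the agent named in the labels and by no measured value. Every mouse carried Shp2E76K/+;LysM-Cre+ on a C57BL/6 background and was 12 to 14 weeks old, so vehicle mice carried the mutation as well. The labels name mice of both sexes but do not give the sex of each mouse. E76K is an activating change in Shp2, the phosphatase encoded by Ptpn11, and mice with it develop a disease like juvenile myelomonocytic leukaemia. LysM-Cre sits in the Lyz2 gene, which myeloid cells transcribe, so the mutation is switched on in that lineage and not in every marrow cell. The combination group received PD0325901 (PD-901) by mouth at 5 mg/kg, on 5 days a week for 4 weeks (20 doses), and 5-azacitidine into the peritoneum at 5 mg/kg (5 doses). The other 6 libraries, 3 from mice given PD-901 alone and 3 from mice given 5-azacitidine alone, entered the model and are cited beside single genes. The sources used here do not state how long after the last dose the marrow was taken.

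Shp2 helps to activate Ras, Ras acts through Raf on the kinase MEK, and MEK activates ERK. Active ERK switches on growth genes together with its own inhibitors, such as the Dusp phosphatases and the Sprouty proteins. 5-azacitidine is a cytidine analogue that is built into RNA and DNA, where it traps the methyltransferase Dnmt1 and lowers DNA methylation in dividing cells. Marrow holds neutrophils at all stages, monocytes, B cell precursors and erythroblasts side by side. In such bulk samples fewer cells of a type and less RNA per cell cannot be told apart.

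The 6 libraries held 18433456 to 23839253 counts each. Secondary granule genes of neutrophils made up 24210 to 51900 CPM (gene counts divided by the scaled depth of the library) in each of them. Some properties of the libraries moved with the groups. The female-specific RNA Xist, which coats the inactive X, exceeded 100 CPM in 3 of 3 vehicle libraries and 0 of 3 combination libraries, and Y-linked RNA was present in 3 of 3 combination libraries. Vehicle replicates 1 and 3, and 5 of the 12 libraries in all, held both Xist and Y-linked RNA, although the labels speak of independent mice, and why was not tested. Lyz2, at 172, 147 and 3228 CPM with vehicle, was at 44.9, 55.9 and 1151 CPM with the combination, so replicate 3 stood apart from replicates 1 and 2 in both groups. Mitochondrial transcripts took 1.75 to 1.81% of the counts with the combination and 1.16 to 1.29% with vehicle. Fits with sex-linked RNA as a covariate and a fit without the libraries that held both kinds are given below. The only vehicle library left in the latter, replicate 2, had Xist at 724.5 CPM and the Y-linked Ddx3y at 0 CPM. Combination replicates 1, 2 and 3 had Xist at 3.816, 1.734 and 7.14 CPM and Ddx3y at 82.43, 86.17 and 64.61 CPM. The groups and Xist cannot be told apart, and in that fit neither can the groups and Y-linked RNA.

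**Figure D1:**
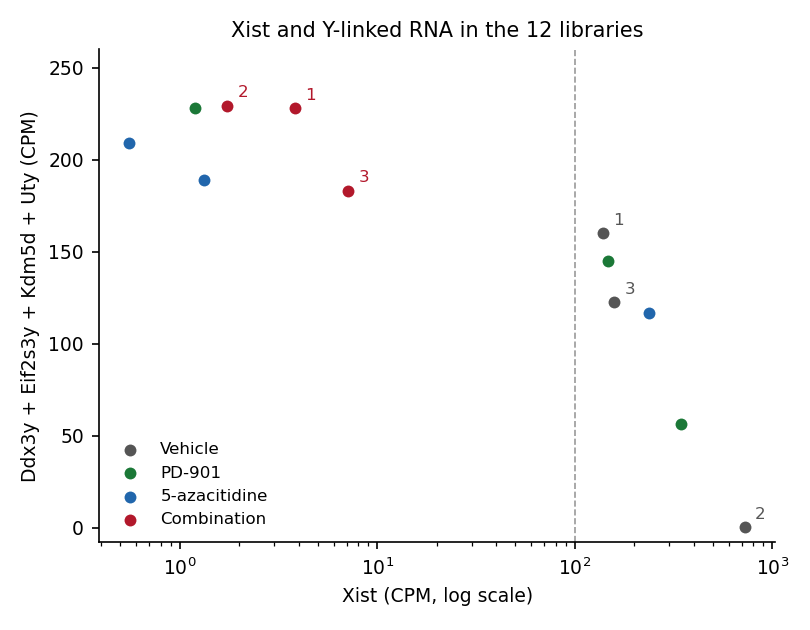
Level of Xist (x axis, CPM on a log scale) against the summed level of 4 Y-linked genes (y axis, CPM) in each of the 12 libraries, with replicate numbers beside the vehicle and combination points and a dashed line at 100 CPM of Xist. The 3 combination libraries lie left of the line and the 3 vehicle libraries right of it, 2 of them with Y-linked RNA.

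With the combination 1010 genes were higher and 1393 lower, of 17475 tested (edgeR's quasi-likelihood test, adjusted p under 0.05). These are 5.78% and 7.97% of the tested genes, and these shares are the background for the gene groups that follow. In 16.1% of tested genes all 3 combination libraries lay above all 3 vehicle libraries, and in 15.9% all lay below. A lack of overlap given below for a gene is to be read beside these shares. At least 2-fold changes were made by 218 of the higher (1.25% of tested genes) and 636 of the lower genes (3.64%), and at least 4-fold changes by 40 and 141. The median log2 difference over all tested genes was 0.01, and below a value in parentheses after a gene is its log2 difference, combination minus vehicle. Protein-coding genes made up 966 of the higher and 1318 of the lower genes. Under 1 CPM with vehicle were 34 of the 1010 higher genes, 5 of the 1393 lower genes and 3921 of the 15072 genes not called. DESeq2 called 1378 and 1921, and limma-voom 1008 and 1425.

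These counts moved with single libraries and in the fits that take up sex-linked RNA. Without vehicle replicate 1 they were 278 and 728, without vehicle replicate 2 574 and 925, without combination replicate 1 285 and 518, and without combination replicate 3 381 and 658. With Xist above or below 100 CPM as a covariate 0 genes were higher and 0 lower (lowest edgeR adjusted p = 0.0563; 2830 genes at an unadjusted p under 0.05), although all 2403 called genes kept their sign. In that fit the vehicle libraries all lie on 1 side of the covariate and the combination libraries on the other, so that its size is estimated from the 6 libraries of the single agents alone. With the summed Y-linked RNA as a covariate 559 were higher and 867 lower, and without the 5 libraries that held both kinds of RNA 10 and 99. That last fit keeps 1 vehicle library (replicate 2) against 3 combination libraries, and the lone library is assumed to vary like the other groups. As it held Xist without Ddx3y and the combination libraries the reverse, the fit cannot separate the combination from sex-linked RNA. Among the 183 named genes past the test, 182 had the same sign between replicates 1 and 2 of each group as between the 2 replicates 3, that is, within each level of Lyz2. These genes were named by their differences, p values or lack of overlap in the same libraries. Their agreement in sign was therefore largely fixed by that choice and is no separate support.

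**Figure D2:**
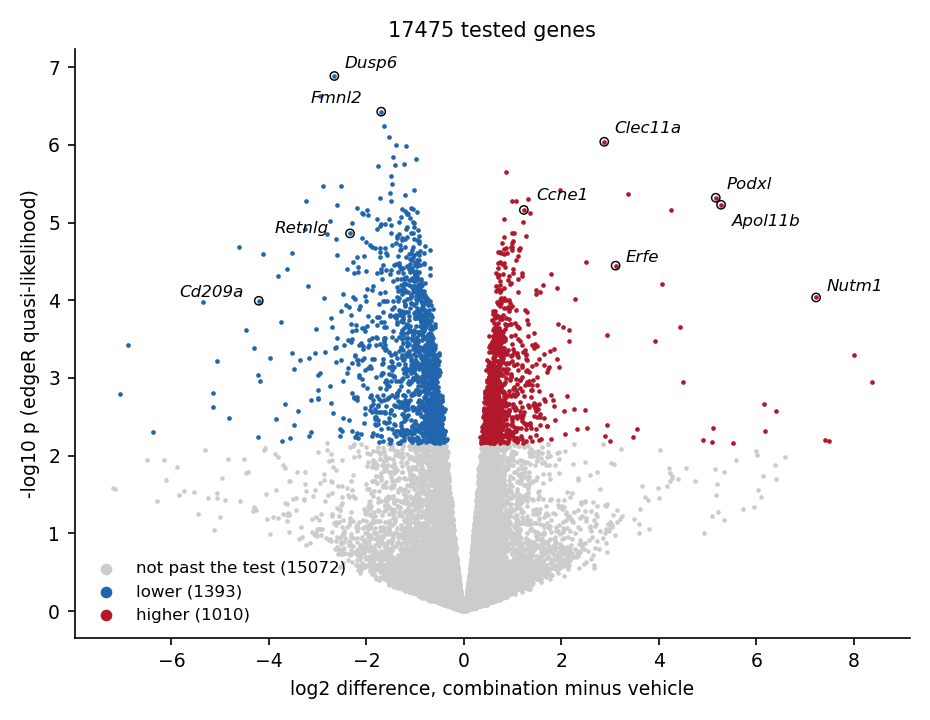
Log2 difference of the combination from vehicle (x axis) against the -log10 of the unadjusted p (y axis) for 17475 genes, with the 1010 higher genes in red, the 1393 lower genes in blue and 10 genes of the text circled. The lowest p belongs to Dusp6, on the side of the lower genes, while the named rises of Podxl, Apol11b and Nutm1 exceed 5 on the log2 scale.

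The largest rises were led by genes that were nearly silent with vehicle. The 12 largest rises and 12 largest falls were ranked only among genes whose 3 and 3 libraries did not overlap, with at least 5 CPM in the higher group. For a rise that floor sets no lower limit on the vehicle level, so the ranking by log2 difference favours genes that were low with vehicle. Podxl encodes podocalyxin, a sialomucin of podocytes, vessels and early blood cells (chromosome 6, 31519488 to 31563981 in mm10). Its level was 0.660, 0.740 and 1.39 CPM with vehicle and 57.4, 25.3 and 19.6 CPM with the combination. All 3 combination libraries lay far above all 3 vehicle libraries, a 35.9-fold rise (log2 difference 5.17 ± 0.71 SE, edgeR adjusted p = 0.00291). With either drug alone Podxl was at 0.627 to 4.62 CPM, and with the Xist covariate its difference was 4.52 (adjusted p = 0.0656). Apol11b, of the apolipoprotein L family (chromosome 15, 77633946 to 77643286), read 1.21, 1.18 and 0.0422 CPM with vehicle and 46.3, 21.5 and 24.3 CPM with the combination, which again did not overlap (log2 difference 5.27 ± 0.73 SE, edgeR adjusted p = 0.00291). Its levels with PD-901 alone were 9.25, 6.10 and 2.55 CPM and with 5-azacitidine alone 2.97, 4.26 and 1.67 CPM, between those of the other groups. Apol8, its neighbour in the same gene cluster, rose from 8.25, 10.4 and 6.33 to 35.9, 19.7 and 41.6 CPM (log2 difference 1.96 ± 0.28 SE, edgeR adjusted p = 0.00291). Reads of close copies within this cluster may be split by the counting, so that the level of a single Apol gene is uncertain.

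Nutm1, a gene normally active in the testis (chromosome 2, 112247948 to 112259291), had 2 reads in the 3 vehicle libraries together and 383 in the 3 combination libraries. The ratio, corrected for library size, was 184 with an exact 95% interval of 50.7 to 1530 that covers counting error only, and edgeR gave adjusted p = 0.00501. In CPM the combination libraries were at 5.44, 3.67 and 8.05, and the 5-azacitidine libraries at 3.50, 0.376 and 1.62. Arhgdig, an inhibitor of small GTPases, rose from 0.220, 0.148 and 0.633 to 10.3, 4.59 and 4.81 CPM (log2 difference 4.24 ± 0.64 SE, edgeR adjusted p = 0.00291). Clec11a, a secreted growth factor for blood progenitors and bone, rose from 0.990, 1.48 and 1.86 to 14.7, 8.46 and 8.91 CPM (log2 difference 2.88, adjusted p = 0.00225), and its 5-azacitidine libraries were intermediate at 3.36, 5.26 and 4.21 CPM. The potassium channel gene Kcnk5 (1.91) and the JNK and p38 phosphatase Dusp8 (2.03) completed the rises outside the red cell lineage. Plek2 (4.07), Erfe (3.11), Hbb-bs (2.16) and Hba-a2 (2.16), all genes of erythroblasts, made up the remainder of the 12 largest rises. Leaving out 1 library ended the call of Hba-a2 without combination replicate 1 (adjusted p up to 0.0606).

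The largest falls included genes of dendritic cells and monocytes beside genes of other kinds, with Cd209a (-4.21) and Igsf9 (-4.12) at the head of the ranking. Cd209a, a lectin of monocyte-derived dendritic cells (chromosome 8, 3743397 to 3748984), stood at 17.5, 20.9 and 50.2 CPM with vehicle and at 2.19, 2.09 and 0.592 CPM with the combination (18.5-fold lower, log2 difference -4.21 ± 0.75 SE, edgeR adjusted p = 0.00515). Cd300e, an activating receptor of monocytes, went from 6.27, 15.4 and 46.3 to 0.407, 2.04 and 1.81 CPM (log2 difference -3.98 ± 0.86 SE, edgeR adjusted p = 0.0114). C3ar1, the receptor of complement fragment C3a, went from 5.66, 6.26 and 25 to 0.560, 1.33 and 1.07 CPM (log2 difference -3.64 ± 0.62 SE, edgeR adjusted p = 0.00372). Vehicle replicate 3, the vehicle library with high Lyz2, was the highest of its group in these 3 genes. No combination library reached the lowest vehicle library, as the ranking required. Batf3, a transcription factor of cross-presenting dendritic cells (-2.99), the phospholipid transfer protein Pltp (-3.49) and the SLAM family receptor Slamf9 (-3.05) fell as well (log2 differences in parentheses). So did Smpdl3b, a lipid-modulating enzyme that restrains Toll-like receptor signals (-3.52), the cell adhesion gene Igsf9 (-4.12), the sodium channel subunit Scn4b (-3.81) and Havcr1, which encodes TIM-1 (-3.76). The interferon-induced pair Ifit3 and Ifit3b fell too (-2.99 and -3.24), and reads of these near-identical copies may be split by the counting. Leaving out 1 library ended the call of Cd300e without combination replicate 1 or 3 (adjusted p up to 0.0748), Batf3 without vehicle replicate 3 or combination replicate 1, 2 or 3 (adjusted p up to 0.11), Pltp without combination replicate 1, 2 or 3 (adjusted p up to 0.101), Slamf9 without combination replicate 3 (adjusted p up to 0.0585), Smpdl3b without combination replicate 1 or 3 (adjusted p up to 0.0658) and Ifit3 without combination replicate 1 or 3 (adjusted p up to 0.088).

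**Figure D3:**
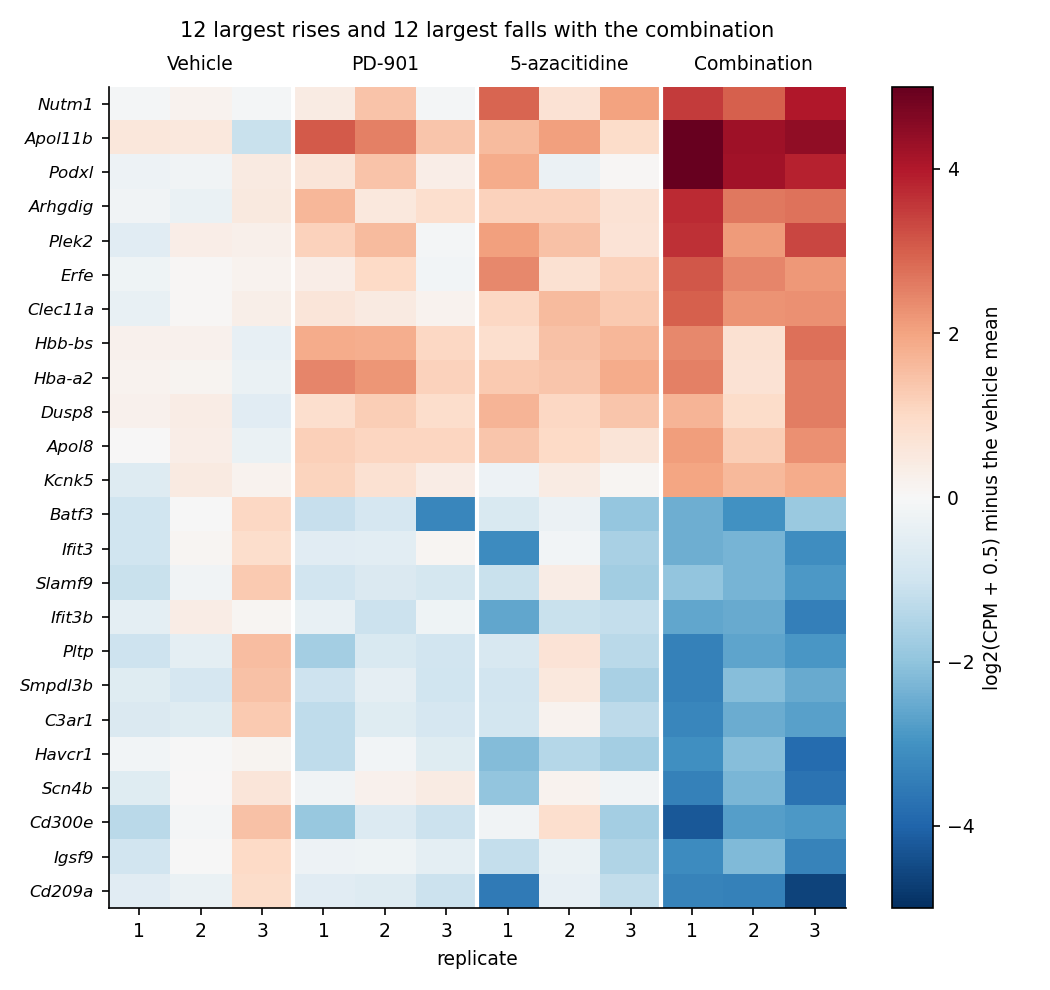
Level of the 12 genes with the largest rises and the 12 with the largest falls (rows) in each of the 12 libraries (columns, replicates 1 to 3 of each group), as log2(CPM + 0.5) minus the mean of the vehicle libraries, red for higher and blue for lower. Podxl and Apol11b are deep red in the 3 combination libraries, and Hbb-bs and Hba-a2 are paler in combination replicate 2 than in replicates 1 and 3.

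Among genes past the test, ribosomal and mitochondrial genes aside, those that lost the most CPM were cytoskeletal genes, neutrophil products and the lysosomal gene Psap. Actb, which encodes beta-actin, led them, from 9193, 7312 and 7770.4 to 4663, 4962 and 4537 CPM (log2 difference -0.78 ± 0.15 SE, edgeR adjusted p = 0.00604). Retnlg, a resistin-like protein of mature neutrophils, stood at 2947, 2142 and 1452 CPM with vehicle and at 353, 501 and 440.1 CPM with the combination (log2 difference -2.34 ± 0.35 SE, edgeR adjusted p = 0.00318). Mmp9, the gelatinase of neutrophils, went from 3659, 2719 and 1626 to 491, 1157 and 836 CPM (log2 difference -1.69). No overlap between the groups was a condition of this ranking, so it adds nothing for these 3 genes. Psap (lysosomal saposins), Coro1a (a leukocyte actin regulator) and Tmsb4x (an actin-binding peptide) had log2 differences of -0.95, -0.96 and -0.66. Under the same limits the most CPM was gained by Mpo, the myeloperoxidase of primary granules, which went from 2264, 2426 and 2857 to 4122, 4413 and 3086 CPM (log2 difference 0.62 ± 0.20 SE, edgeR adjusted p = 0.0495). The adult globins Hba-a1 and Hbb-bs, the chaperone Hsp90ab1 (0.65) and the granule proteases Prtn3 (0.90) and Elane (0.72) followed. Among these genes, calls were lost for Mpo without vehicle replicate 1 or 2 or PD-901 replicate 1, 2 or 3 or combination replicate 1 or 2 (adjusted p up to 0.162), Prtn3 without vehicle replicate 1, 2 or 3 or combination replicate 1 or 2 (adjusted p up to 0.147), Elane without vehicle replicate 1, 2 or 3 or combination replicate 1 (adjusted p up to 0.153), Hba-a1 without vehicle replicate 1 or 3 or combination replicate 1 or 3 (adjusted p up to 0.12) and Tmsb4x without vehicle replicate 1 or 2 or 5-azacitidine replicate 2 or combination replicate 1 or 3 (adjusted p up to 0.142).

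The lowest p values were mostly those of modest, even falls. After Dusp6 came Fmnl2, a formin that builds actin filaments, at 58.6, 49.8 and 42 CPM with vehicle and 10.5, 18.4 and 17.4 CPM with the combination (log2 difference -1.70 ± 0.20 SE, edgeR adjusted p = 0.00218). Timp2, an inhibitor of matrix proteases, went from 151, 119 and 108 to 34, 47 and 40.9 CPM. Nfkbie, which encodes the NF-kB inhibitor I-kappa-B epsilon, held 39.3, 39.6 and 40.1 CPM with vehicle and 14.4, 17.4 and 13.5 CPM with the combination. The spread within a group was small beside the gap between groups in all 3. The autophagy regulator Rubcnl (-1.53), the platelet and leukocyte protein Plek (-1.19), the myeloid receptor Lrrc25 (-1.46), the thymic stromal lymphopoietin receptor Crlf2 (-0.98) and Mapk7, which encodes the kinase ERK5 (-1.23), had edgeR adjusted p between 0.00225 and 0.00251.

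**Figure D4:**
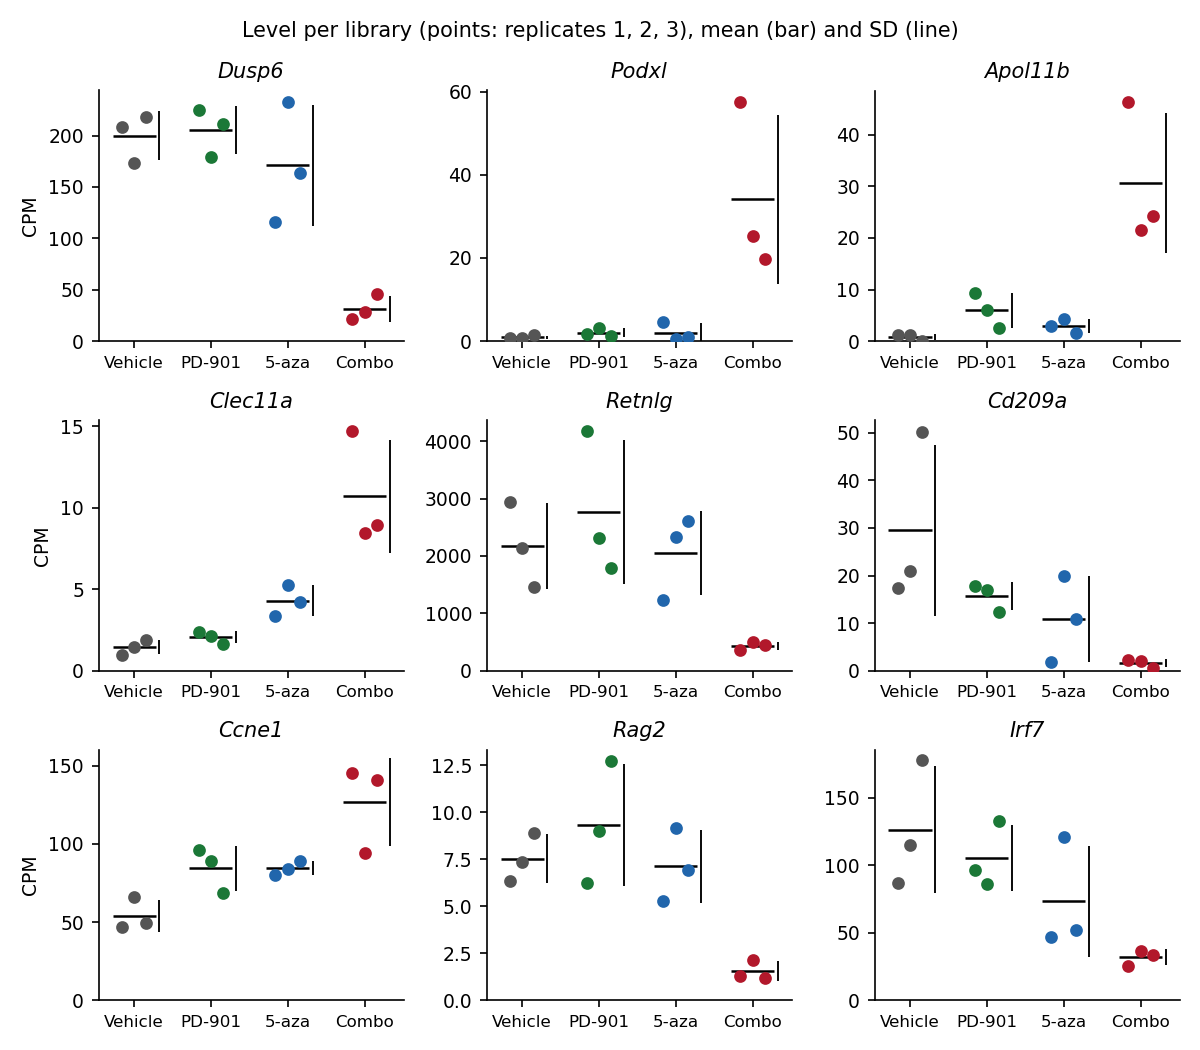
Level in CPM (y axis, from 0) of 9 genes in every library, by group (x axis, 3 points each for replicates 1 to 3), with the group mean as a bar and 1 SD as a line. For each gene the 3 combination points lie apart from the 3 vehicle points, as in Dusp6, at 21.2 to 45.6 CPM against 173 to 218 CPM.

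Transcripts that respond to ERK were lower with the combination. Of 21 ERK target and feedback genes 9 fell and 0 rose, with a median log2 difference of -1.47. Dusp6, the cytosolic ERK phosphatase (chromosome 10, 99263231 to 99267489), stood at 209, 173 and 218 CPM with vehicle and 21.2, 27.9 and 45.6 CPM with the combination. It was at 225, 179 and 211 CPM with PD-901 alone and 116, 233 and 164 CPM with 5-azacitidine alone, so that the combination libraries lay below all 9 others. With the Xist covariate the difference was -2.39 (adjusted p = 0.0563) against -2.66 without it. The nuclear phosphatases Dusp5 (-1.75), Dusp1 (-1.60) and Dusp2 (-1.19), the cytosolic Dusp7 (-1.35) and the ETS factor Etv5 (-1.62) also fell. Members that did not pass included Spry4 (-2.00), Etv4 (-2.26), Spred1 (-0.37), Spry2 (-0.38) and Myc (0.29), the single member with a positive difference. The calls of Dusp1 without vehicle replicate 1 or 3 or 5-azacitidine replicate 3 or combination replicate 1 or 3 (adjusted p up to 0.151) and Dusp2 without vehicle replicate 1, 2 or 3 or combination replicate 1 or 3 (adjusted p up to 0.113) depended on the libraries named. Of the list 4 members fell without combination replicate 1 and 5 with the Y-linked covariate. In the fit without the 5 libraries that held both kinds of sex-linked RNA, the median was -1.37. There the only vehicle library, replicate 2, also differed from the combination libraries in Xist and Y-linked RNA.

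Immediate early transcription factors, which ERK and stress signals induce within minutes, fell in 12 of 18 tested members, and 0 rose (median -1.24). Atf3, a stress-induced factor, stood at 10.4, 11.1 and 21.6 CPM with vehicle and 2.29, 2.91 and 0.789 CPM with the combination (log2 difference -2.86 ± 0.54 SE, edgeR adjusted p = 0.00505). Nr4a1, an orphan nuclear receptor, went from 59.5, 61.4 and 85.6 to 15.6, 14.3 and 12.7 CPM (log2 difference -2.28 ± 0.37 SE, edgeR adjusted p = 0.00364), and Klf2, a quiescence factor of leukocytes, from 247, 239 and 401 to 58.4, 83.3 and 65.7 CPM (log2 difference -2.10 ± 0.32 SE, edgeR adjusted p = 0.00322). The groups were apart in all 3 genes. Ier5 (-1.61), Junb (-1.53) and Klf6 (-1.11) fell too, while Nr4a3 (-0.59), Nr4a2 (-0.25) and Klf10 (-0.28) did not pass. The list gave 6 falls without combination replicate 1, 7 without combination replicate 3 and 11 with the Y-linked covariate. Against vehicle replicate 2 alone, without the 5 libraries, the median was -1.09 and 3 fell. Among the genes given here, single libraries ended the call of Junb without vehicle replicate 1 or combination replicate 1 or 3 (adjusted p up to 0.0717).

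The components of the cascade themselves changed little. Of 25 genes from the receptor adaptors to ERK, 1 rose and 3 fell, and the median was -0.20. The adaptor Gab1, a docking protein of Shp2, rose from 11.4, 12.6 and 8.01 to 23.3, 14.6 and 25.9 CPM (log2 difference 1.00 ± 0.31 SE, edgeR adjusted p = 0.0444). Map2k1 (MEK1) went from 163, 138 and 137 to 102, 108 and 83.2 CPM (log2 difference -0.58 ± 0.14 SE, edgeR adjusted p = 0.0125), Mapk3 (ERK1) had a difference of -0.58 and Grb2, the adaptor that recruits the Ras activator Sos, of -0.44. Map2k2 (MEK2) and Nras did not pass, at 0.09 and -0.05. Ptpn11 itself read 139.9, 149.7 and 135 CPM with vehicle and 131, 163 and 146 CPM with the combination, which overlapped (log2 difference 0.05 ± 0.12 SE, edgeR adjusted p = 0.867), and gene counts do not separate its mutant from its normal allele. Left-out libraries ended the call of Gab1 without vehicle replicate 1, 2 or 3 or PD-901 replicate 2 or 3 or combination replicate 1 or 3 (adjusted p up to 0.162), Map2k1 without vehicle replicate 1 or combination replicate 3 (adjusted p up to 0.0753), Mapk3 without vehicle replicate 1 or 2 or combination replicate 1, 2 or 3 (adjusted p up to 0.223) and Grb2 without vehicle replicate 1, 2 or 3 or combination replicate 1 or 3 (adjusted p up to 0.135).

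Upstream of the cascade, 11 of 21 cytokine and growth factor receptors fell and 2 rose (median -0.69). Csf3r, the G-CSF receptor of neutrophils, fell to 268, 476 and 299 CPM from 1207, 1003 and 561 CPM with vehicle (log2 difference -1.41), and the calls included Csf1r, the receptor of monocytes (-1.26), the progenitor receptor Flt3 (-1.20), the interleukin-17 receptor Il17ra (-1.02) and Csf2ra, a GM-CSF receptor subunit (-0.98). The shared beta chain Csf2rb (-0.13) and the stem cell factor receptor Kit (0.18) did not pass. The 2 that rose are receptors of red cell precursors: Epor, for erythropoietin, at 37.8, 52 and 39.9 CPM with vehicle and 93.9, 45.1 and 135 CPM with the combination, and Tfrc, for transferrin, at 274, 338 and 265 CPM with vehicle and 623, 375 and 687 CPM with the combination. The falls numbered 6 without vehicle replicate 1, 7 without vehicle replicate 2, and 5 without combination replicate 1 or 3. Calls that rested on single libraries were those of Csf3r without vehicle replicate 1 or combination replicate 1 or 3 (adjusted p up to 0.0729) and Epor without vehicle replicate 1 or 3 or combination replicate 1 or 3 (adjusted p up to 0.0958).

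Genes of DNA replication rose almost throughout. Of 30 licensing and S phase genes 29 rose, against 5.78% of all tested genes, with a median of 0.66. Ccne1, cyclin E1, which starts S phase, stood at 46.7, 65.8 and 49.6 CPM with vehicle and 145, 94.2 and 141 CPM with the combination (log2 difference 1.23 ± 0.18 SE, edgeR adjusted p = 0.00291). Cdc6, which loads the replicative helicase onto origins, stood at 81.5, 98.2 and 73.1 CPM with vehicle and 170.4, 126 and 199.8 CPM with the combination (log2 difference 0.97 ± 0.16 SE, edgeR adjusted p = 0.0033). Mcm6, a subunit of that helicase, stood at 306, 371 and 326 CPM with vehicle and 567, 457 and 534 CPM with the combination (log2 difference 0.64 ± 0.13 SE, edgeR adjusted p = 0.00642). No combination library of these 3 genes fell within the vehicle range. Pold1, the catalytic subunit of DNA polymerase delta, was the exception (-0.01). With the Xist covariate 0 of the 30 passed and the median was 0.67, and with the Y-linked covariate 22 rose. Against vehicle replicate 2 alone, without the 5 libraries that held both kinds of sex-linked RNA, the median was 0.51 and 0 passed. Without vehicle replicate 1, combination replicate 1 or combination replicate 3 the number was 16, 17 and 19.

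S phase genes are classical targets of E2F factors, and their promoters are shown here because the members moved together. The RefSeq table (GRCm38.p6, 250 bases before to 50 after the start) held a promoter for 24 of the 30 genes and for 11564 of the tested genes. The letters TTTGGCGC, TTTCGCGC or TTTCCCGC, searched on both strands, were found in 9 of the 24 (37.5%), in 3.31% of the 11564, in 6.81% of the genes called higher and in 1.4% of those called lower. Capitals mark these letters, and a match is a description of the sequence, not of binding.
Mcm6, chr1:128359656-128359955, minus strand: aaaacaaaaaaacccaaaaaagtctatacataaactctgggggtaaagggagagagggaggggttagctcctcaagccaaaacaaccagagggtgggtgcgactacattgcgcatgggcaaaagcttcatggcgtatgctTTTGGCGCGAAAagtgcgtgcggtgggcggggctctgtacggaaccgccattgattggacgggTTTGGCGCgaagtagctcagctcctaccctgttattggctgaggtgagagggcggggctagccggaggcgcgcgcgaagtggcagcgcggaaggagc
Cdc6, chr11:98907901-98908200, plus strand: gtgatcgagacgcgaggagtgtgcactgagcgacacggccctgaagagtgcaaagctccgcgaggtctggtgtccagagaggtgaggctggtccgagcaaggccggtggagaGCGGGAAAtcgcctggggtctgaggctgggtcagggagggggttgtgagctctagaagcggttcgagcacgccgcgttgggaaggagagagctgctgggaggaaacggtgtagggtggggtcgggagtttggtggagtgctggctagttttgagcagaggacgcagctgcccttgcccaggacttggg
The Mcm6 promoter carries 3 matches, 2 of which overlap on opposite strands, and the Cdc6 promoter 1.

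Other parts of the growth programme moved upward with smaller steps. Of 23 genes of G2 and mitosis 10 rose (median 0.48), among them cyclin B1 (Ccnb1, 0.78) and the kinase Aurka (0.65), while Mki67 stood at 809, 941 and 641 CPM with vehicle and 1045, 1162 and 1364 CPM with the combination and did not pass (log2 difference 0.58 ± 0.20 SE, edgeR adjusted p = 0.0715). One-carbon and nucleotide synthesis rose in 14 of 22 genes (median 0.54), led by the folate enzyme Mthfd1 (0.99) and by Ppat (0.83) and Paics (0.75) of purine synthesis. Ribosome biogenesis rose in 14 of 24 genes (median 0.61), among them nucleophosmin (Npm1, 0.86) and nucleolin (Ncl, 0.74). Of 20 cytosolic aminoacyl-tRNA synthetases 12 rose (median 0.54), with Aars at 0.87 and Eprs at 0.71. The chaperonin TRiC and its partner prefoldin had 6 of 11 members higher (median 0.57), all 6 of them TRiC subunits such as Cct3 (0.72). In none of these 5 lists did a member fall by edgeR. Mitochondrial ribosomal proteins rose in 4 of 22 (median 0.37) and nuclear-encoded respiratory chain subunits in 4 of 19 (median 0.31).

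Single libraries moved these counts. Without vehicle replicate 1 the rises were 4 in G2 and mitosis, 6 in nucleotide synthesis, 4 in ribosome biogenesis, 3 among synthetases and 0 in the TRiC list. Without combination replicate 1 they were 3, 8, 6, 4 and 1 in the same order. Mitosis genes also gave 3 without vehicle replicate 3 or combination replicate 3, nucleotide synthesis 8, ribosome biogenesis 8 and synthetases 7 without vehicle replicate 2, and ribosome biogenesis 9 without combination replicate 3. Respiratory chain subunits gave 0 without vehicle replicate 1 or 2 or combination replicate 1 or 3. Mitochondrial ribosomal proteins gave 0 without vehicle replicate 1 or combination replicate 1, and 1 without vehicle replicate 2 or combination replicate 3. Of the genes named, a single library ended the call of Cct3 without vehicle replicate 1 or combination replicate 1 (adjusted p up to 0.0709). Between replicates 1 and 2 of both groups the median was 0.79 in ribosome biogenesis, 0.75 in nucleotide synthesis, 0.64 among synthetases and 0.63 in the TRiC list. Between replicate 3 of both groups, 1 library against 1, it was 0.29, 0.34, 0.37 and 0.3 in that order. The median of mitosis genes went the other way, from 0.36 to 0.65, as did that of S phase genes, from 0.59 to 0.81.

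Not every metabolic group moved. Of 22 cholesterol synthesis genes 0 passed edgeR's test in either direction, 3 had an unadjusted p under 0.05, all lower, and DESeq2 called 2 lower and limma-voom 1. Glycolysis was split: 5 of 20 fell, among them the lactate exporter Slc16a3 (-1.19) and the glucose carrier Slc2a3 (-1.10) of leukocytes. The 2 that rose were Hk1 (0.51) and Pdk1 (1.01). Heat shock chaperones rose in 6 of 16 (median 0.56), including the mitochondrial pair Hspd1 (1.00) and Hspe1 (1.06). The median of this list was 0.65 between replicates 1 and 2 of both groups and 0.1 between replicate 3 of both groups, 1 library against 1. Hsph1, an HSP110 chaperone, read 50.9, 67.3 and 75.6 CPM with vehicle and 135, 166 and 115 CPM with the combination (log2 difference 1.10 ± 0.19 SE, edgeR adjusted p = 0.00334). Its level was 121, 183 and 183 CPM with PD-901 alone and 189.7, 189 and 179 CPM with 5-azacitidine alone, levels that reached or exceeded those of the combination. The falls in glycolysis numbered 3 without vehicle replicate 1 or 2 or combination replicate 1 or 3, and 8 without combination replicate 2. A single library ended the call of Hk1 without vehicle replicate 1, 2 or 3 or combination replicate 1 or 3 (adjusted p up to 0.113).

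Genes tied to 5-azacitidine were read next. Of 15 genes of DNA methylation and demethylation 1 rose, Uhrf1 (0.50), the partner that brings Dnmt1 to replicating DNA and also a member of the S phase list. Dnmt1 stood at 343, 404 and 350.4 CPM with vehicle and 411, 532 and 531 CPM with the combination (log2 difference 0.43 ± 0.18 SE, edgeR adjusted p = 0.146). Of 20 germ cell genes that promoter methylation is known to keep silent, 4 had enough reads to be tested and 0 passed, 0 had an unadjusted p under 0.05, and DESeq2 and limma-voom called 0. In the list of uptake and metabolism of the drug 5 of 16 rose and 1 fell (median 0.36). Slc29a1, an equilibrative nucleoside carrier, went from 58, 73.7 and 74.2 to 122, 92.1 and 137 CPM, Uck2, the kinase that activates the drug, from 91, 95.5 and 122 to 158, 174 and 152 CPM (log2 difference 0.65 ± 0.14 SE, edgeR adjusted p = 0.00859), and the ribonucleotide reductase subunits Rrm1 and Rrm2 rose by 0.76 and 0.81. Samhd1, which destroys deoxynucleotides, fell from 755, 708 and 665 to 298, 432 and 292 CPM (log2 difference -1.06 ± 0.19 SE, edgeR adjusted p = 0.00401). Cda, the deaminase that inactivates 5-azacitidine, was at 0, 0.247 and 0.169 CPM with vehicle and 5.85, 1.07 and 3.00 CPM with the combination, low but not overlapping (log2 difference 4.49 ± 1.09 SE, edgeR adjusted p = 0.0169). The call was lost for Uhrf1 without vehicle replicate 1, 2 or 3 or combination replicate 1 or 3 (adjusted p up to 0.132), Slc29a1 without vehicle replicate 1 or combination replicate 3 (adjusted p up to 0.0579) and Cda without vehicle replicate 1 or combination replicate 1 (adjusted p up to 0.11), and without vehicle replicate 1 the rises of the list were 3.

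The Cda promoter is shown with its CpG dinucleotides in capitals, the sites that Dnmt1 methylates. Methylation was not measured here.
Cda, chr4:138367906-138368205, minus strand: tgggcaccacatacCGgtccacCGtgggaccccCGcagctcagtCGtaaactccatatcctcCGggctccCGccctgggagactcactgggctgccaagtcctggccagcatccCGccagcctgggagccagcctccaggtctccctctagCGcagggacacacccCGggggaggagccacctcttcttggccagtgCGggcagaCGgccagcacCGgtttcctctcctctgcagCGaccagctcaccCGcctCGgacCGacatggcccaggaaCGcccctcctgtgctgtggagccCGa
It holds 18 CpG in 300 bases. The median was 23 over the 793 higher genes with a promoter in the table, 17 over the 1072 lower genes and 19 over all 11564. Of the higher genes under 1 CPM with vehicle 21 had a promoter there, with a median of 14 (quartiles 4 and 24). In 1636 genes under 1 CPM with vehicle that were not called, the median was 9 (quartiles 4 and 20), so the spreads overlapped widely. The 21 were picked by their level with the combination, so the sets also differ in expression, and whether that bears on their CpG was not tested. Apol11b has 0 CpG in its window and Clec11a 4.

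Cell cycle brakes and death genes had few calls, but the shares that fell were not below that of all tested genes (7.97%). They were 16.7% of cell cycle inhibitors, 25% of p53 targets and 12.5% of BCL2 family genes. Of 12 cell cycle inhibitors 2 fell, the antiproliferative Btg1 (-1.51) and the unconventional cyclin Ccng2 (-0.58). Cdkn1a, which encodes p21, stood at 17.3, 22.8 and 25.6 CPM with vehicle and 32.4, 28.8 and 35.6 CPM with the combination and did not pass (log2 difference 0.56 ± 0.21 SE, edgeR adjusted p = 0.0948). Among 20 p53 targets (median 0.02) 1 rose, Ccng1 (0.48), and 5 fell, including the death receptor Fas (-1.55) and Trp53inp1 (-0.82). The p53 list gave 0 falls without vehicle replicate 1 or combination replicate 1, 2 without vehicle replicate 2 or combination replicate 3, and 3 without combination replicate 2 or 5-azacitidine replicate 3. Of 16 BCL2 family genes 2 fell, the survival factor Mcl1 (-0.57) and the death factor Bmf (-1.30). Single libraries ended the call of Ccng2 without vehicle replicate 1 or 2 or PD-901 replicate 3 or 5-azacitidine replicate 2 or combination replicate 1 or 3 (adjusted p up to 0.181), Ccng1 without vehicle replicate 1 or 2 or combination replicate 1 or 3 (adjusted p up to 0.135), Fas without vehicle replicate 1 or 2 or combination replicate 1 or 3 (adjusted p up to 0.138), Trp53inp1 without vehicle replicate 1 or combination replicate 1 or 3 (adjusted p up to 0.09) and Mcl1 without vehicle replicate 1, 2 or 3 or PD-901 replicate 2 or 3 or 5-azacitidine replicate 3 or combination replicate 1 or 3 (adjusted p up to 0.178).

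Inflammatory and innate immune genes were lower in most lists. Of 30 interferon-stimulated genes 21 fell and 0 rose (median -1.15). Irf7, the factor that amplifies type I interferon, stood at 86.6, 115 and 178 CPM with vehicle and 25.5, 36.8 and 33.8 CPM with the combination (log2 difference -1.98 ± 0.35 SE, edgeR adjusted p = 0.00454). Ifit1, which binds foreign RNA caps, went from 8.58, 20.5 and 29.1 to 5.34, 4.69 and 2.64 CPM (log2 difference -2.20 ± 0.45 SE, edgeR adjusted p = 0.0072), and Isg15, a ubiquitin-like modifier, from 11.3, 19.5 and 24 to 7.17, 6.68 and 10.8 CPM (log2 difference -1.15 ± 0.31 SE, edgeR adjusted p = 0.0244). The groups did not overlap in any of these 3. The RNA sensors Ddx58 (-0.95) and Dhx58 (-1.04) and the antiviral synthetase Oas3 (-1.51) fell as well, whereas Ifih1 (-0.18), Ifit2 (-0.26) and Isg20 (0.66) did not pass. The falls numbered 10 without combination replicate 1 or 3, and 5 with the Y-linked covariate. With the Xist covariate the median was -0.72. Against vehicle replicate 2 alone, in the fit without the 5 libraries, it was -1.16 and 5 fell. Calls ended for Isg15 without vehicle replicate 2 or 3 or combination replicate 1 or 2 (adjusted p up to 0.102).

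The promoters of 2 of these genes are printed with the core to which interferon-activated factors bind, GAAA, any 2 bases and GAAA, in capitals on either strand. This core occurs in 12 of the 21 list promoters in the RefSeq table (57.1%), in 3.26% of all 11564, in 5.78% of the lower and in 2.27% of the higher genes.
Ifit1, chr19:34640639-34640938, plus strand: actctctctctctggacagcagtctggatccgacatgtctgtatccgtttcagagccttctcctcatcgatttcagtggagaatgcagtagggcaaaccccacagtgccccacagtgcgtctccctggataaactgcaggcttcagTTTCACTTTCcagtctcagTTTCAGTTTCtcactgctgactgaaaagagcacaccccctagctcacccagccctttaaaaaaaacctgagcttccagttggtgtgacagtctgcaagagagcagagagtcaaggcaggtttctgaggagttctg
Isg15, chr4:156200769-156201068, minus strand: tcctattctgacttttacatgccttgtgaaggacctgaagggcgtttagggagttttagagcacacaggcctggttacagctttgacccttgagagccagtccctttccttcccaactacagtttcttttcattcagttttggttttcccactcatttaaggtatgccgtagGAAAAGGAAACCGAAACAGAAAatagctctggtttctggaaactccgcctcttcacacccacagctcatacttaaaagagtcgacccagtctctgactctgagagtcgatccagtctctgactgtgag
Ifit1 holds 2 matches, both on the opposite strand, and Isg15 holds 3 that overlap.

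Of 22 NF-kB targets and cytokines 11 fell and 0 rose (median -1.08). Tnf, tumour necrosis factor, went from 29.6, 29.2 and 30.2 to 11.6, 12.1 and 12.4 CPM (log2 difference -1.30 ± 0.24 SE, edgeR adjusted p = 0.00458), and the chemokines Ccl3 (-1.92) and Ccl4 (-1.89) and the feedback inhibitors Tnfaip3 (-1.03), Nfkbiz (-1.44) and Nfkbie (-1.39) were lower too. Il1b, at 131, 98.2 and 75.5 CPM with vehicle and 23.1, 48.1 and 18.2 CPM with the combination, did not pass (log2 difference -1.77 ± 0.79 SE, edgeR adjusted p = 0.181). Of 18 Toll-like receptor genes and adaptors 9 fell (median -0.80), with Cd14, the lipopolysaccharide coreceptor, at 50.1, 42.9 and 46 CPM with vehicle and 11.6, 16.8 and 15.9 CPM with the combination (log2 difference -1.65 ± 0.35 SE, edgeR adjusted p = 0.00912). Tlr7 (-1.22), Tlr13 (-1.23) and their chaperone Unc93b1 (-1.05) fell, while Tlr4 (-0.01) did not pass. The NF-kB list gave 5 falls without combination replicate 1 and 6 without combination replicate 3, and the Toll-like list 5 without vehicle replicate 1 and 3 without combination replicate 1. Single libraries decided Ccl3 without combination replicate 1 or 3 (adjusted p up to 0.0788), Ccl4 without vehicle replicate 3 or combination replicate 1, 2 or 3 (adjusted p up to 0.112) and Cd14 without combination replicate 1 (adjusted p up to 0.063).

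Surface receptors of phagocytes were lower too. Of 24 Fc receptors and paired receptors 18 fell and 0 rose (median -1.10). Fcgr4, an activating IgG receptor, stood at 64.4, 67.1 and 151 CPM with vehicle and 19.7, 27.2 and 28.9 CPM with the combination (log2 difference -1.90 ± 0.34 SE, edgeR adjusted p = 0.00457), and its signalling chain Fcer1g stood at 413, 387 and 393 CPM with vehicle and 225, 219 and 174 CPM with the combination (log2 difference -0.95 ± 0.15 SE, edgeR adjusted p = 0.00318). Sirpa, the receptor for the "don't eat me" signal CD47, had a difference of -0.93. Reads of the close copies Sirpb1a and Pira2 may be split by the counting. Of 23 chemokine receptors and integrins 11 fell (median -0.67), among them Itgax (-2.18), Itgb2 (-0.88), the shared beta chain of the leukocyte integrins, and Selplg (-1.04), the ligand of the selectins. Cxcr4, which holds cells in the marrow, did not pass (-0.48). The first list gave 9 falls without combination replicate 1 and 10 without combination replicate 3, and the second gave 7 without vehicle replicate 1 or combination replicate 3 and 5 without combination replicate 1. Fcgr4, Fcer1g, Sirpa, Itgax, Itgb2 and Selplg kept their calls in all 12 fits without 1 library.

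Effector functions followed the same direction. Of 14 genes of the phagocyte oxidase and microbial killing 9 fell (median -0.77), such as the metal transporter Slc11a1 (-1.78), the leukotriene enzyme Alox5 (-1.09) and Padi4 (-1.26), which citrullinates histones in neutrophils. The 1 that rose was Mpo, a gene of immature neutrophils. MHC class II presentation fell in 6 of 12 genes (median -1.18), with the invariant chain Cd74 at 609.6, 839.8 and 2079 CPM with vehicle and 272, 298 and 293 CPM with the combination (log2 difference -2.03 ± 0.54 SE, edgeR adjusted p = 0.0295). Class I presentation fell in 3 of 15 (median -0.24), among them H2-T23 (-0.99) and H2-D1 (-0.67), whose close copies leave single levels uncertain, and B2m did not pass (-0.25). Of 22 lysosome and autophagy genes 6 fell (median -0.38), including cathepsin S (Ctss, -1.32) and the master regulator Tfeb (-1.09). The class II count was 1 to 3 in 8 of the 12 fits without 1 library, and the oxidase count 4 without vehicle replicate 1 or combination replicate 1 or 3. The class I count was 1 without any 1 vehicle library or combination replicate 1 or 3. The lysosome count was 2 without vehicle replicate 1 or 3 and 1 without combination replicate 1 or 3. Calls were lost for Cd74 without vehicle replicate 3 or PD-901 replicate 1 or 2 or 5-azacitidine replicate 3 or combination replicate 1, 2 or 3 (adjusted p up to 0.155), H2-D1 without vehicle replicate 1, 2 or 3 or combination replicate 1 or 3 (adjusted p up to 0.105) and Ctss without vehicle replicate 3 or combination replicate 1 or 3 (adjusted p up to 0.117).

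Markers of cell types were read as groups, with their summed level. Of 13 mature neutrophil genes 9 fell (median -1.41), and the list summed to 16340 to 31350 CPM with vehicle and 10770 to 14230 CPM with the combination. Besides Retnlg and Mmp9, the stefin-like protease inhibitor Stfa2l1 went from 40.1, 40.4 and 26.4 to 2.75, 4.54 and 7.02 CPM (log2 difference -2.89 ± 0.39 SE, edgeR adjusted p = 0.00291). Of 12 secondary granule genes, which mark the stage before, 3 fell (median -0.52), led by the collagenase Mmp8 (-1.65), and the sums overlapped, at 24710 to 51900 and 24210 to 26580 CPM. Of 10 primary granule genes of promyelocytes 7 rose (median 0.69), and the sums were 5528 to 6302 and 6998 to 10590 CPM. Ctsg, cathepsin G, stood at 241, 249 and 399 CPM with vehicle and 664, 675 and 398 CPM with the combination (log2 difference 0.97 ± 0.24 SE, edgeR adjusted p = 0.0153). The rises of promyelocyte genes were lost without vehicle replicate 1, vehicle replicate 2 or combination replicate 1 (0 each), were 3 without combination replicate 2, and between replicate 3 of both groups, 1 library against 1, Ctsg had a difference of -0.002. The mature neutrophil count was 5 without vehicle replicate 1 and 4 without combination replicate 1 or 3, and the secondary granule count was 1 without vehicle replicate 1 or combination replicate 1 and 6 without vehicle replicate 3. The calls of Ctsg without vehicle replicate 1 or 2 or combination replicate 1 (adjusted p up to 0.0758) rested on single libraries.

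Monocyte and dendritic cell markers were lower. Of 13 monocyte genes 7 fell (median -0.94; sums 4319 to 5346 with vehicle and 2024 to 3824 CPM with the combination), with the chemokine receptor Cx3cr1 at 54.6, 61.7 and 126 CPM with vehicle and 20.1, 28.2 and 17.1 CPM with the combination (log2 difference -1.89 ± 0.37 SE, edgeR adjusted p = 0.00678). Ly6c2, a marker of classical monocytes, did not pass (-0.28). Of 14 dendritic cell genes 11 fell (median -1.21; sums 768.6 to 1130 and 294.2 to 502 CPM), among them Flt3 and the integrin Itgax. Of 15 marrow macrophage genes 4 fell (median -0.85; sums 798.7 to 1447 and 484.9 to 720.3 CPM), including the complement genes C1qa (-2.29) and C1qb (-2.55). Monocyte falls were 3 without combination replicate 1, 4 without combination replicate 3 and 11 without combination replicate 2, and those of dendritic cells 7 without combination replicate 1. Macrophage falls were 0 without vehicle replicate 3 or combination replicate 1, 1 without combination replicate 2, and 2 without PD-901 replicate 1, 2 or 3 or 5-azacitidine replicate 1 or 3. Calls ended for Cx3cr1 without combination replicate 1 (adjusted p up to 0.0553), C1qa without vehicle replicate 3 or PD-901 replicate 1, 2 or 3 or 5-azacitidine replicate 1 or 3 or combination replicate 1, 2 or 3 (adjusted p up to 0.192) and C1qb without vehicle replicate 3 or PD-901 replicate 1, 2 or 3 or 5-azacitidine replicate 1 or 3 or combination replicate 1, 2 or 3 (adjusted p up to 0.178).

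Genes of B cell precursors fell in 14 of 15 cases and rose in 0 (median -1.88), and the sums were 559.7 to 632.5 CPM with vehicle and 112.3 to 282.5 CPM with the combination. Rag2, a subunit of the V(D)J recombinase, stood at 6.32, 7.35 and 8.90 CPM with vehicle and 1.27, 2.14 and 1.18 CPM with the combination (log2 difference -2.30 ± 0.36 SE, edgeR adjusted p = 0.00301). Ebf1, the factor that commits cells to the B lineage, stood at 33.2, 30.8 and 34.7 CPM with vehicle and 3.00, 12.8 and 4.89 CPM with the combination (log2 difference -2.25 ± 0.39 SE, edgeR adjusted p = 0.00378), and the adaptor Blnk had a difference of -1.88. With PD-901 alone Rag2 was at 6.23, 8.97 and 12.7 CPM and with 5-azacitidine alone at 5.28, 9.15 and 6.95 CPM, so both overlapped vehicle. Plasma cell genes fell in 3 of 10, such as Irf4 (-1.83). The precursor count was 5 without vehicle replicate 1, 7 without vehicle replicate 3, 4 without combination replicate 1 and 6 without combination replicate 3. It was 3 with the Y-linked covariate. With vehicle replicate 2 as the only vehicle library, without the 5 libraries that held both kinds of sex-linked RNA, it was 0 and the median -1.51. Calls that ended were those of Blnk without combination replicate 1 (adjusted p up to 0.0633).

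Erythroblast markers rose in 19 of 20 genes (median 1.30), but not to the same degree in each mouse. The list summed to 2288 to 3761 CPM with vehicle and to 8927, 3646 and 10810 CPM in combination replicates 1, 2 and 3, so replicate 2 lay within the vehicle range. Hbb-bs, an adult beta globin, stood at 262, 268 and 169.6 CPM with vehicle and 1218, 386 and 1527 CPM with the combination, and Rhag, a membrane protein of the Rh complex, at 68.9, 79.8 and 37 CPM with vehicle and 202, 88.5 and 233 CPM with the combination (log2 difference 1.50 ± 0.32 SE, edgeR adjusted p = 0.00971). The globin copies Hba-a1 and Hba-a2, and Hbb-bs and Hbb-bt, share sequence, so that their single levels are uncertain. Iron and heme genes rose in 14 of 20 (median 0.92), among them Alas2 (1.50), which starts heme synthesis, Cpox (1.29) and the ferrireductase Steap3 (1.10). In a fit of replicates 1 and 2 of both groups alone, edgeR called 0 erythroblast genes (median 0.74). Replicate 3 of both groups, 1 library against 1, had a median of 2.39, and the 18 calls there borrow their spread from the single-agent groups. The erythroblast count was 2 without combination replicate 1, 3 without combination replicate 3, 4 without vehicle replicate 1 and 6 without vehicle replicate 3, and the iron list gave 6 or 7 in the same fits. Calls of named genes ended for Rhag without combination replicate 1 or 3 (adjusted p up to 0.0587) and Alas2 without vehicle replicate 1, 2 or 3 or combination replicate 1 or 3 (adjusted p up to 0.0786).

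Basophil, mast cell and eosinophil genes fell in 7 of 16 cases and rose in 1, with summed levels of 1458 to 2226 CPM with vehicle and 742.8 to 967.1 CPM with the combination. Mcpt8, a protease of basophils, went from 161, 182 and 239 to 66.8, 70.8 and 57 CPM (log2 difference -1.58 ± 0.29 SE, edgeR adjusted p = 0.00515), and without vehicle replicate 3 or combination replicate 1 or 2 the falls numbered 3, 2 and 4. The remaining lineages had calls in few markers, while some of their summed levels differed. Stem and progenitor genes summed to 1215 to 1308 CPM with vehicle and 810.4 to 1044 CPM with the combination. For stroma, bone and vessel genes the sums were 273.5 to 489.4 and 207.5 to 265.4 CPM. Mature B cell genes fell in 1 of 11 cases, with sums of 786.2 to 908.5 and 411.6 to 633.7 CPM. Sums of the T cell, NK cell and megakaryocyte lists overlapped between the groups. Of 16 stem and progenitor genes 3 fell, Gata2 (-1.25), Flt3 and Spi1 (-0.78), while Kit, Cd34 (0.04) and Meis1 (0.35) did not pass. Of 15 T cell genes 0 passed edgeR's test, 3 had an unadjusted p under 0.05, all higher, and DESeq2 called 1 and limma-voom 0. NK cell genes fell in 2 of 12, megakaryocyte and platelet genes in 1 of 12 and stroma, bone and vessel genes in 2 of 15, the collagen Col1a1 (-0.72) and the endothelial cadherin Cdh5 (-1.11). Each of these 3 counts was 0 in 4 of the 12 fits without 1 library, combination replicate 1 among them. Single libraries ended the call of Gata2 without vehicle replicate 3 or combination replicate 1 or 2 (adjusted p up to 0.118), Col1a1 without vehicle replicate 1 or PD-901 replicate 2 or 3 or 5-azacitidine replicate 2 or combination replicate 1, 2 or 3 (adjusted p up to 0.26) and Cdh5 without vehicle replicate 1, 2 or 3 or PD-901 replicate 1, 2 or 3 or combination replicate 1, 2 or 3 (adjusted p up to 0.168).

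**Figure D5:**
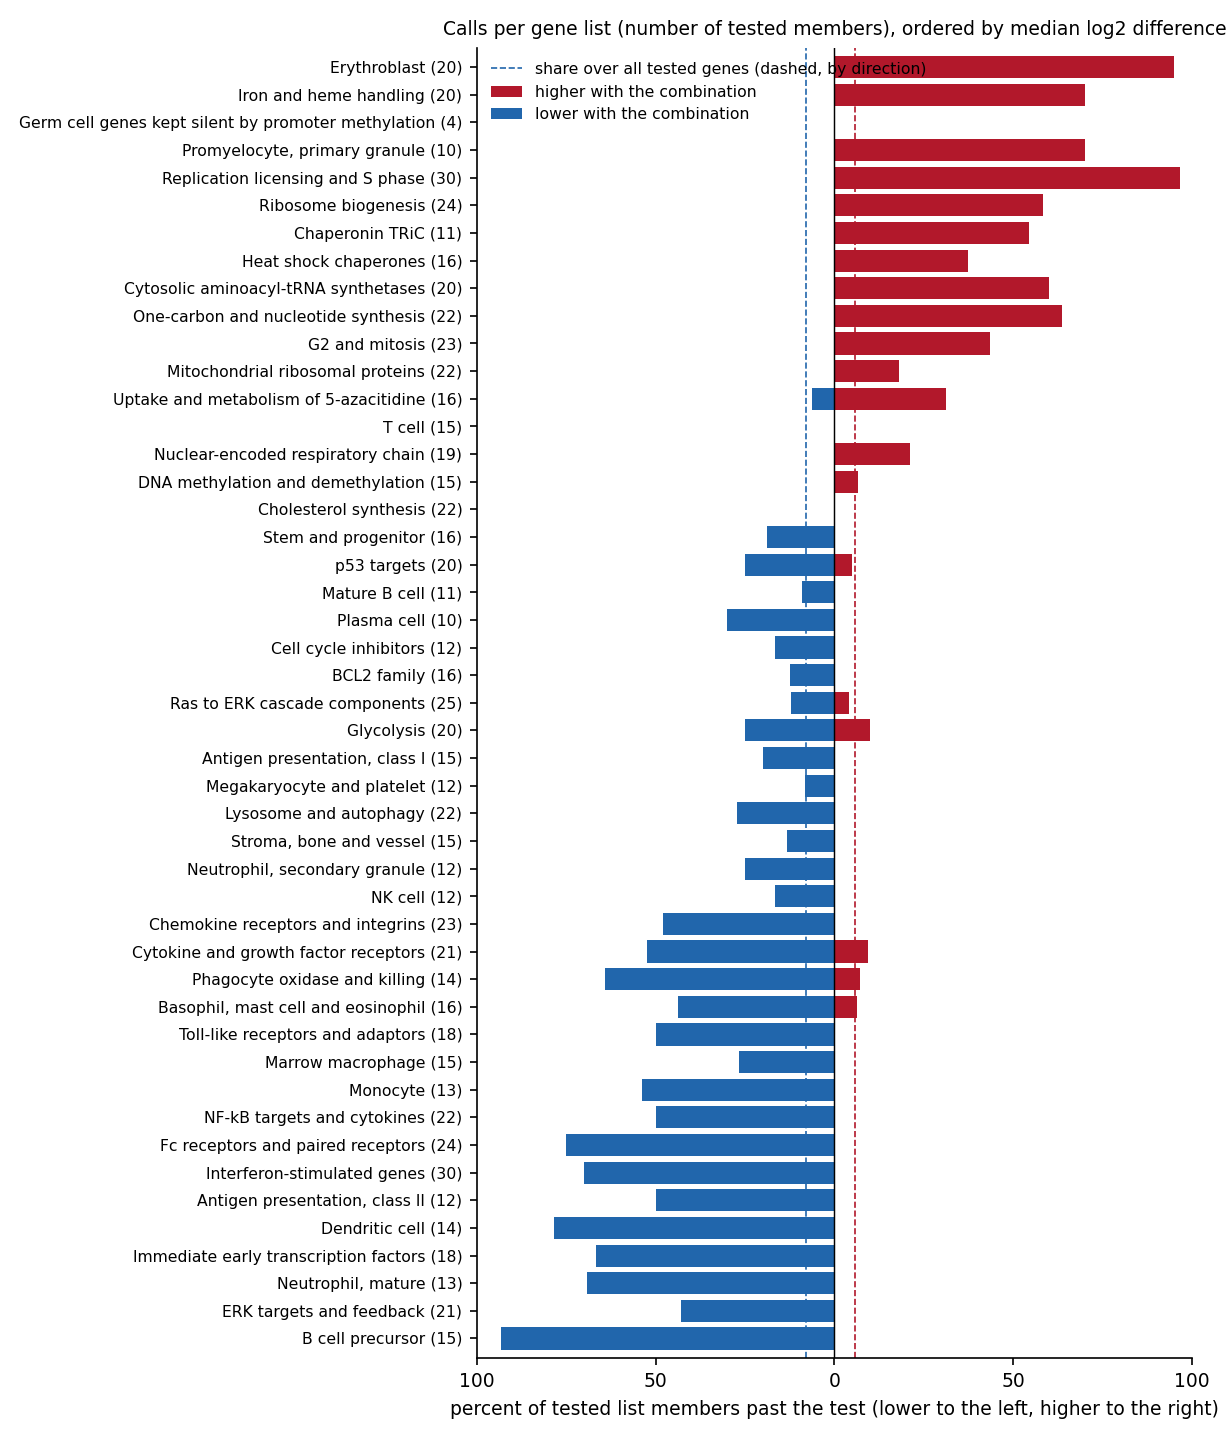
Percent of the tested members of each of the 47 gene lists that were higher (red, to the right) or lower (blue, to the left) with the combination by edgeR, ordered by the median log2 difference, with the number of tested members in parentheses and dashed lines at the shares over all tested genes, 5.78% and 7.97%. S phase and erythroblast lists have the longest red bars, and B cell precursors and dendritic cells the longest blue ones.

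Whether the combination departed from the sum of both single-agent differences on the log2 scale was asked in the same model. By edgeR 0 of 17475 genes passed (0% of tested genes), 1871 had an unadjusted p under 0.05, DESeq2 called 292 and limma-voom 0. The lowest adjusted p, 0.06, was shared by Dusp6 (departure -2.47) and Hsph1 (-1.75). For Dusp6 the differences from vehicle were 0.04 with PD-901, -0.22 with 5-azacitidine and -2.66 with both, and for Hsph1 1.33, 1.52 and 1.10. All 3 comparisons share the vehicle libraries. Ccne1 had 0.64, 0.65 and 1.23 (departure -0.06, adjusted p = 0.959), and Apol11b 2.91, 1.89 and 5.27 (departure 0.47, adjusted p = 0.906). Retnlg had 0.34, -0.08 and -2.34 (departure -2.60, adjusted p = 0.104), Rag2 0.31, -0.08 and -2.30 (-2.53, 0.104), and Podxl 1.08, 1.10 and 5.17 (2.99, 0.271). A missed threshold with 3 mice a group does not show that the drugs add up. The number called was 150 without 5-azacitidine replicate 1, 20 without combination replicate 2, 12 without vehicle replicate 3 and 400 without the filter on low counts.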

How the data were processed

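RNA of bone marrow cells was sequenced for 12 mice, and each mouse gave 1 library. The authors deposited 1 table of raw read counts per gene that are not normalized. Per the submitters' processing notes the tools were Subread 1.6.5, featureCounts, STAR 2.7.2a and bcl2fastq, and the build was mm10. No source used here states the annotation release or the use of strand, so overlapping and antisense genes cannot be told apart. The authors' column of gene length (another deposited value) was not needed for a test. Coordinates and gene types come from the authors' count table, and promoters from RefSeq.

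Counts were analysed here with edgeR 4.0.16 in R 4.3.3. The filter filterByExpr (4 groups, at least 10 counts, total of at least 15) left 17475 of 56350 genes. Libraries were scaled by TMM, and CPM use the same scaling. A quasi-likelihood model with 1 mean per group was fitted to all 12 libraries (8 residual degrees of freedom, two-sided tests, Benjamini-Hochberg over all tested genes, threshold 0.05). The standard error is the log2 difference over the square root of the F statistic. Total counts of 15356919 to 27148190 set the precision for low genes, and intervals cover counting error only. Within a group, pairs of libraries had a chi-square of 19.9 to 71.2 per degree of freedom, so each counted once as its own sample. The code was checked on simulated data.

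Groups follow the agent in the labels. Replicate numbers only name the mice. The members and the 47 gene lists were chosen with earlier results of these data known. Named genes are the 12 largest rises and falls past the test (no overlap of libraries, at least 5 CPM in the higher group), the 6 with the most CPM gained or lost, the 10 lowest p values, up to 4 per list by p, and 11 set genes. Sex-linked markers, receptor segments, unnamed models, ribosomal and mitochondrial genes were left out of the first 3. Any other list member named was picked with its values in view. Alternatives were median-ratio size factors, other filters, DESeq2 1.42.0, limma-voom 3.58.1, fits of fewer libraries and covariates for Xist, Y-linked RNA and Lyz2. A few list members are not reported here.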

Additional observations from a re-analysis of the deposited data

How the results depend on the processing

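Genes higher with the combination numbered 1010 and genes lower 1393. Without 1 library in turn they ranged from 278 to 1124 and from 518 to 1642. With the Xist covariate they were 0 and 0, with the Y-linked covariate 559 and 867, without the 4 libraries lowest in Lyz2 (1 library against 1) 321 and 349, and with only those 4 libraries 286 and 788. Without the 5 libraries with both Xist and Y-linked RNA, which leaves 1 vehicle library, they were 10 and 99. This setting and the Y-linked covariate were chosen after seeing the data. Fits of fewer libraries have fewer samples, and the cause of the other shifts was not tested. The remaining settings (median-ratio size factors, other filters, DESeq2, limma-voom, the Lyz2 covariate, only the 6 libraries) stayed within 1.5 times. Departure from additivity was called for 0 genes, for 400 without the low-count filter, 292 by DESeq2 and 0 to 150 without 1 library in turn. The share of calls that were higher was 42% and fell to 27.6% without vehicle replicate 1 and 9.17% without the 5 libraries.

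Of the 183 named genes past the test 113 kept the call in all 12 fits without 1 library. Signs turned for Cd83 (0.31), Map2k2 (-0.019) and Ptpn11 (-0.05) with the Xist covariate, and for Dpep3 (-0.20) with the Y-linked covariate. Without the 4 libraries lowest in Lyz2 they turned for Ctsg (-0.002), Idh2 (-0.24), Itga2b (0.017), Nkg7 (-0.017), Srebf2 (0.031) and Tubb1 (0.70). Without the 5 libraries with both kinds of sex-linked RNA they turned for Lyz2 (1.49) and Ptpn11 (-0.033). Without 1 library in turn Lyz2 ranged from -4.55 to 1.385, Hormad1 from -0.758 to 4.311 and Ptpn11 from -0.041 to 0.124. Of these, Ctsg alone had passed the test. No paired analysis was possible because the labels carry no replicate numbers, and the numbers used here only follow the order of the samples. Depth limits the genes under 1 CPM, such as Nutm1 and Cda with vehicle.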
